A study of Mus musculus with 12 samples.

Results

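Cadherins and protocadherins were examined in the ribosome-associated RNA of cultured mouse dorsal root ganglion (DRG) neurons. All genes with a symbol of the form Cdh followed by a number, or beginning with Pcdh, were taken as members, 82 of the 14177 genes listed in all, of which 18 were Cdh genes and 64 were Pcdh genes. The Cre- table listed all 82, and the Cre+ table listed 35 of its 9112 genes, 10 Cdh and 25 Pcdh. Every gene of the Cre+ table had at least 5 counts in each of its libraries, so members at low counts in any Cre+ library are missing from it.

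All animals were male Rpl22HA/HA mice aged 3 to 6 months, in which Cre recombination switches on an HA-tagged copy of the ribosomal protein Rpl22. The Cre+ groups carried Runx3-Cre, which acts where Runx3, a transcription factor of proprioceptive neurons, is active. The Cre- groups were littermates without Cre, whose pull-downs were meant to measure background. Neurons pooled from 5 mice per sample were purified on 20% Percoll and cultured for 24 h in F12 medium with 10% serum. RNA was sequenced from the anti-HA pull-down and from an input taken as 10% of the lysate, with 3 libraries of each of 4 groups, 12 in all. The pools are mixed cultures, so fewer cells of a type and less RNA per cell cannot be told apart.

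Runx3 itself went against the labels. In the libraries labelled Cre-, it had 4.70, 1.90 and 2.88 normalized counts in the inputs and 20.8, 36.0 and 51.4 in the pull-downs, with no overlap (log2 fold change 3.52, SE 0.428, FDR 0.000236). In the libraries labelled Cre+, it had 4.28, 2.39 and 5.55 in the inputs and 22.8, 2.07 and 11.1 in the pull-downs, and the groups overlapped (1.55, SE 0.872, FDR 0.309). The column names of the Cre+ table also fit titles of the Cre- samples, and its columns were assigned by the samples' descriptions. Whether the tables or labels were exchanged cannot be told from these values, so Cre+ and Cre- stand for the labels throughout, and a difference between genotypes is one between libraries so labelled. Total counts per library were 8886308 to 13941113 in the Cre+ table and 9403767 to 18633365 in the Cre- table. Log2 levels correlated across genes at r = 0.695 to 0.839 between Cre+ pull-downs and at 0.937 to 0.968 between Cre- pull-downs, so the Cre+ pull-downs stood further apart. Normalized counts are counts per 1000000 after TMM scaling within each table, and their levels are set side by side across tables only as a description.

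Classical cadherins are calcium-dependent adhesion molecules that bind their own kind on the neighbouring cell and anchor to actin through catenins. Type I members hold tissues together more broadly, and type II members sort groups of neurons, among them the motor neuron pools that proprioceptive axons contact in the spinal cord. Protocadherins are a larger branch. The alpha, beta and gamma clusters sit side by side on 1 chromosome, each neuron switches on its own few promoters there, and the alpha and gamma transcripts then share constant exons, while each beta gene is a single exon. The non-clustered delta protocadherins are dispersed genes with more regional expression, and several bind the WAVE complex that drives actin branching.

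Each gene was tested for pull-down against input, and for the difference of that enrichment between genotypes, with edgeR's quasi-likelihood test over all genes with a mean FPKM above 1. A call needed a Benjamini-Hochberg FDR below 0.1 and a 2-fold change. In Cre-, 42 members could be tested, 11 Cdh and 31 Pcdh. In Cre+, 30 could be tested, 9 Cdh and 21 Pcdh. The difference was tested for 32.

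In the Cre- table, 11 of the 42 members tested were enriched in the pull-down and 0 were depleted, where 6.01% of the 11526 genes tested were enriched and 5.83% were depleted. At an unadjusted p under 0.05, edgeR's test put 18 members higher and 1 lower (Pcdhga11), where 16.1% of all genes tested were higher and 15% lower. DESeq2 called 3 Cdh and 11 Pcdh genes enriched and 0 depleted, where it called 6.62% of all genes higher and 6.23% lower, and the exact test called 1 depleted, Cdh1. A single fit over all 12 libraries, which takes its spread from the Cre+ libraries too, called only Cdh12 and Pcdh7 enriched among the 32 members it held. Pcdh8, Pcdh19 and Pcdhb19 were not among these 32. The shares of all genes called by the exact test and by this fit are not given here, so these counts cannot be set against all genes. The enriched members were Cdh12, Cdh8 and Cdh13 among the cadherins, the delta protocadherins Pcdh8, Pcdh19, Pcdh7 and Pcdh10, and the beta-cluster genes Pcdhb15, Pcdhb19, Pcdhb20 and Pcdhb16. The median log2 fold change of the members tested was 0.81 (31 of 42 positive), against -0.04 over all genes tested. This does not describe all members, since the limit on mean FPKM takes in pull-downs and inputs together and so can keep a gene for its pull-down level. Among the 40 members left out by it, 19 were positive and 21 negative, with a median of -0.12. The 3 pull-downs all exceeded the 3 inputs in 16 of the members tested and were all under them in 2, where 18.2% of all genes had all pull-downs above all inputs and 18.6% had all under.

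**Figure D1:**
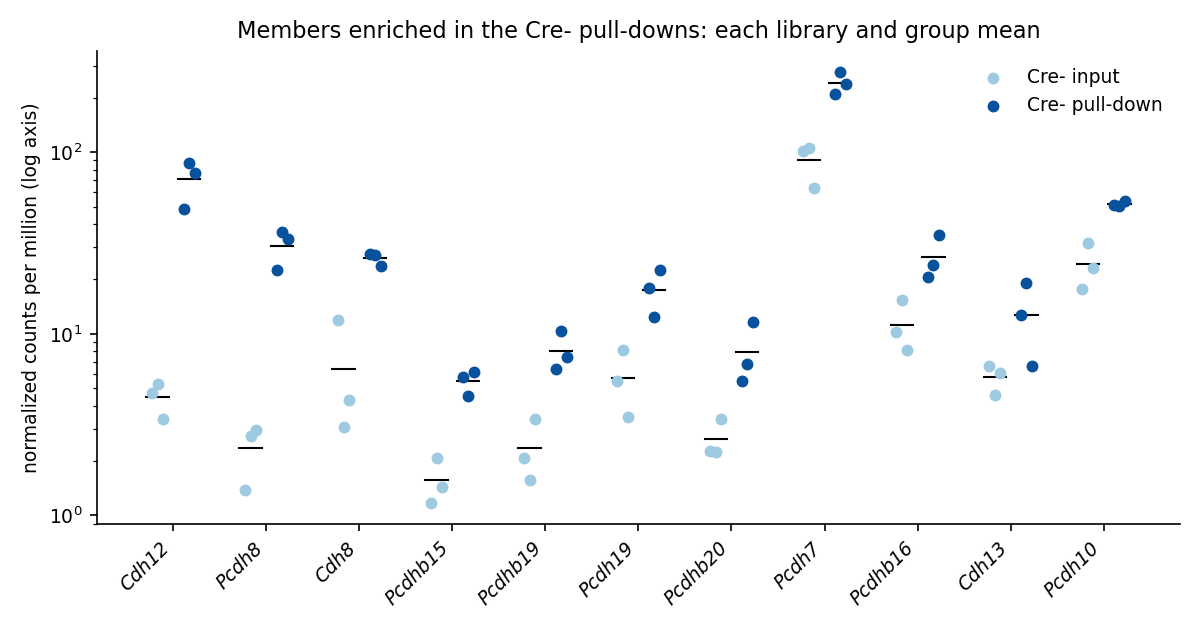
Normalized counts (per 1000000), on a log axis, for the 11 members enriched in the Cre- pull-downs; points are the 3 inputs and the 3 pull-downs, and black lines are group means. Cdh13 is the 1 gene of these whose groups overlap, with a lowest pull-down of 6.63 and a highest input of 6.66.

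Cdh12, a type II cadherin of neurons on chromosome 15 (GRCm38, 20448878 to 21598421), had the largest fold change of the members tested. Its inputs were at 4.70, 5.28 and 3.41 normalized counts and its Cre- pull-downs at 48.5, 86.8 and 77.1. The lowest pull-down was far above the highest input (log2 fold change 3.99, SE 0.305, FDR 2.33e-05, edgeR). Cdh8, a type II cadherin of sensory circuits on chromosome 8 (99024471 to 99417666), was at 11.9, 3.05 and 4.32 in the inputs and at 27.6, 27.1 and 23.7 in the pull-downs. Its inputs varied more than its pull-downs (2.04, SE 0.442, FDR 0.0084).

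Cdh13, which lacks a transmembrane segment and is tethered by a lipid anchor, was at 6.66, 4.62 and 6.06 in the inputs and at 12.6, 19.0 and 6.63 in the pull-downs. The groups overlapped, and the call (1.14, SE 0.422, FDR 0.084) was lost without any 1 of the inputs (FDR 0.126, 0.221 and 0.165 without libraries 1, 2 and 3) or without pull-down 2 (0.74, FDR 0.352), and with the replicate number as a block (1.03, FDR 0.139).

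The other type II cadherins were not called. Cdh18 was at 14.1, 7.92 and 4.09 in the inputs and 17.4, 18 and 15.2 in the pull-downs (0.96, FDR 0.13). With the replicate number as a block, Cdh18 was called enriched. Cdh6 had a log2 fold change of 1.21 (FDR 0.208). Cdh11, a cadherin of mesenchymal cells as well as of neurons, was at 37.7, 43.3 and 39.1 in the inputs and at 68.5, 34.9 and 26.6 in the pull-downs, where library 1 stood above the other two (0.11, SE 0.309, FDR 0.84). Cdh10 had -0.21 (FDR 0.844).

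Cdh5, the cadherin of endothelial junctions, was at 55.1, 34.8 and 38.1 in the Cre- inputs and at 48.2, 5.01 and 6.25 in the pull-downs (log2 fold change -1.10, SE 0.93, FDR 0.487). Pull-down 1 was level with the inputs, and the other two were several-fold below them. Without pull-down 1 the value was -2.90 (FDR 2.5e-05), a depletion. Cdh1, the epithelial cadherin and the Cdh gene with the highest mean FPKM in both tables (30.4 and 34.8), was also highest in pull-down 1, at 187, 206 and 138 in the inputs and at 149, 57.0 and 32.7 in the pull-downs (-1.15, SE 0.554, FDR 0.22). Without pull-down 1 it was also depleted (-1.96, FDR 9.41e-05). Each input came from a lysate that was also pulled down, and with the replicate number as a block both genes were called depleted (Cdh1 -1.42, FDR 0.0142, and Cdh5 -1.85, FDR 0.0295). Nothing in the sources used here says that equal numbers mark 1 lysate.

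Some marker lists of other cells were also highest in that library. Summed over the endothelial list (8 of 10 genes listed, 0 of 6 tested called, 0 at an unadjusted p under 0.05), the Cre- pull-downs were at 203, 25.1 and 36.8 normalized counts and the inputs at 72.0 to 104. The fibroblast list (7 of 8 listed; 1 of 5 tested, Col1a1, depleted) was at 90.5, 29.5 and 25.2 in the pull-downs and at 82.6 to 96.2 in the inputs, and the pericyte and smooth muscle list (7 of 8 listed; both genes tested, Rgs5 and Tagln, depleted) at 74.5, 20.1 and 19.7 against 76.3 to 90.7. The Schwann and satellite glia list did not set library 1 apart, at 2074, 1667 and 2007 in the pull-downs. The list of other sensory neurons (2416, 1693 and 1600) and the macrophage list (62.4, 36.1 and 32.9) were also highest in pull-down 1. The pan-neuronal list (50945, 58528 and 58536) and the proprioceptor list (1454, 1687 and 1782) were lowest there. The part of any of these cells in the values of Cdh1 and Cdh5 was not tested.

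Of the other type I cadherins, Cdh2 (N-cadherin, the main classical cadherin of neurons) was at 86.8, 88.2 and 99.0 in the Cre- inputs and at 143, 114 and 144 in the pull-downs. All pull-downs were higher, by less than 2-fold (log2 fold change 0.55, SE 0.17, FDR 0.0433), so it was not called. Cdh4 was at 15.6, 17.7 and 25.8 in the inputs and 21.1, 36.0 and 27.6 in the pull-downs (0.52, SE 0.295, FDR 0.258), with overlap.

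Pcdh8, a delta-2 protocadherin also known for its induction by neuronal activity, had the second largest fold change of the members tested. It was at 1.37, 2.72 and 2.96 normalized counts in the Cre- inputs and at 22.3, 36.2 and 33.2 in the pull-downs (log2 fold change 3.68, SE 0.376, FDR 7.41e-05). In this genotype 3 of the 4 delta-2 genes tested were enriched. Pcdh19, whose loss in mosaic causes an epilepsy, was at 5.49, 8.17 and 3.49 in the inputs and 17.9, 12.3 and 22.3 in the pull-downs (1.62, SE 0.391, FDR 0.0141). Pcdh10 was at 17.5, 31.8 and 22.9 in the inputs and at 51.1, 50.7 and 53.9 in the pull-downs (1.11, SE 0.249, FDR 0.00982), and its value without input 1 was under the 2-fold limit (0.92, FDR 0.0333). The exception was Pcdh17, at 96.5, 103 and 148 in the inputs and at 73.0, 120 and 109 in the pull-downs, which overlapped (-0.20, SE 0.227, FDR 0.595).

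Upstream sequence is shown for 3 delta-2 genes that were called, Pcdh8 and Pcdh10 in Cre- and Pcdh17 in Cre+. Each is the 250 bases before the RefSeq start (GRCm38.p6). Of the 82 members, 18 had such an entry that could be used. Capitals mark a GC box (GGGCGG) or a CCAAT box (CCAAT) on either strand, and neither an E-box (CACGTG) nor a cAMP response element (TGACGTCA) was found. The counts are of RNA on ribosomes and do not measure promoter use.
Pcdh8, chr14:79771313-79771562, minus strand: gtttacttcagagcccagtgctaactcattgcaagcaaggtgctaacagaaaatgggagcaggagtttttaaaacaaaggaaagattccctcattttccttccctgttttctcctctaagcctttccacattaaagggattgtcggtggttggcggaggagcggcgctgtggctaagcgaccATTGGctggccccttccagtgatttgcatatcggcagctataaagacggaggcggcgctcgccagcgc
Pcdh10, chr3:45378148-45378397, plus strand: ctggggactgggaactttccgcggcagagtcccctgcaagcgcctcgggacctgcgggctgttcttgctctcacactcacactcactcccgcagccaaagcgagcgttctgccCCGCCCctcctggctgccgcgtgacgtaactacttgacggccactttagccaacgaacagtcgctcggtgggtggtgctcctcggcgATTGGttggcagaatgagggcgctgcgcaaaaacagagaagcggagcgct
Pcdh17, chr14:84443313-84443562, plus strand: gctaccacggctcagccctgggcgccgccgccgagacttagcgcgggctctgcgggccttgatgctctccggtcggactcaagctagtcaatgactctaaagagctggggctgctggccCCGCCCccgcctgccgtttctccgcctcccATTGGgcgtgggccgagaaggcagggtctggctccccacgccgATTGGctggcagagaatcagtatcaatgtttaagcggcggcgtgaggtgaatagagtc
Pcdh8 held 1 CCAAT box, Pcdh10 held 1 CCAAT box and 1 GC box, and Pcdh17 held 2 CCAAT boxes and 1 GC box. Among all 32851 promoters of the table, 33.8% held a CCAAT box, 32.7% a GC box, 6.02% an E-box and 1.55% a cAMP response element. Among 21 starts of the 18 members, 13 held a CCAAT box, 8 a GC box and 0 either of the others. Cdh7 and Pcdh9 entered with several starts each, and the overlapping stretches of Pcdh9 hold the same CCAAT box. The starts are therefore not independent of each other. A match is a description of the letters and not a shown site.

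Among the delta-1 protocadherins, Pcdh7 was at 101, 105 and 63.8 in the Cre- inputs and at 210, 275 and 237 in the pull-downs (log2 fold change 1.42, SE 0.208, FDR 0.000777). Of its exon bases, 21.1% overlap 4932441J04Rik on the opposite strand, as 9.61% of those of Pcdh8 overlap Gm9748. The use of strand in counting is not given in the sources used here, so reads of these pairs cannot be told apart. Pcdh9 was at 85.4, 114 and 91.0 in the inputs and at 172, 190 and 178 in the pull-downs (0.89, SE 0.17, FDR 0.00396). Its groups were well apart and its change was under 2-fold, so it was not called. Pcdh11x, on the X chromosome, had 1.17 (FDR 0.13). Pcdh1, the most abundant member per length in both tables (authors' mean FPKM 75.0 in Cre- and 101 in Cre+), was at 350, 294 and 289 in the inputs and at 339, 202 and 213 in the pull-downs, which overlapped (-0.31, SE 0.202, FDR 0.33).

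The beta cluster was the class of clustered genes that held calls in Cre-. Of its 11 genes tested 4 were enriched, and the 11 had positive log2 fold changes (median 1.24). Of the 10 beta genes under the FPKM limit, 5 were positive and 5 negative, so the direction held only among the genes that passed the limit. Pcdhb16 was at 10.3, 15.3 and 8.11 in the inputs and at 20.6, 23.8 and 34.9 in the pull-downs (1.24, SE 0.327, FDR 0.0218). The other enriched beta genes had fewer counts. Pcdhb15 was at 1.18, 2.06 and 1.44 in the inputs and at 5.75, 4.54 and 6.18 in the pull-downs (1.81, SE 0.535, FDR 0.0365). Pcdhb19 was at 2.06, 1.57 and 3.41 in the inputs and at 6.36, 10.4 and 7.44 in the pull-downs (1.77, SE 0.485, FDR 0.0256). Pcdhb20 was at 2.25, 2.23 and 3.41 in the inputs and at 5.52, 6.84 and 11.5 in the pull-downs (1.59, SE 0.479, FDR 0.0389). In each of these genes every pull-down lay above every input.

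The 4 enriched beta genes lie close together on chromosome 18, from the start of Pcdhb15 at 37473546 to the end of Pcdhb20 at 37507660. Pcdhb17 (0.64, FDR 0.253) and Pcdhb18 (1.29, FDR 0.141) lie in the same stretch and were not called. Between 1.8% and 8.75% of the 50-base stretches of the 11 genes tested also occur in another gene's transcripts, so some reads could not be told apart between neighbours. Single libraries decided several calls. Pcdhb15 without input 3 had FDR 0.106, Pcdhb16 without pull-down 3 was under 2-fold (0.998), Pcdhb19 without pull-down 2 had FDR 0.117, and Pcdhb20 had FDR 0.116 without input 2 and 0.174 without pull-down 3.

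The gamma and alpha clusters had no call in Cre-. Over the 10 gamma genes tested the log2 fold changes ran from -0.98 (Pcdhga11, FDR 0.116) to 1.28 (Pcdhgb1, FDR 0.121), with a median of 0.10 and 5 of 10 positive. Pcdhga11 (14, 11.2 and 8.04 in the inputs; 6.30, 3.66 and 6.92 in the pull-downs) and Pcdhga7 (9.11, 11.3 and 7.66; 6.81, 4.67 and 4.17) were the 2 tested members whose pull-downs were all under the inputs. Pcdhac2, a C-type isoform that neurons express without choosing among promoters, was at 46.0, 60.8 and 40.6 in the inputs and at 58.1, 65.2 and 41.7 in the pull-downs (0.16, SE 0.234, FDR 0.686). Transcripts of the gamma genes tested share 44.8% to 99% of their 50-base stretches with other genes and those of the alpha genes 48.2% to 52.4%, so these values are uncertain where the authors' counting could split or drop such reads.

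**Figure D2:**
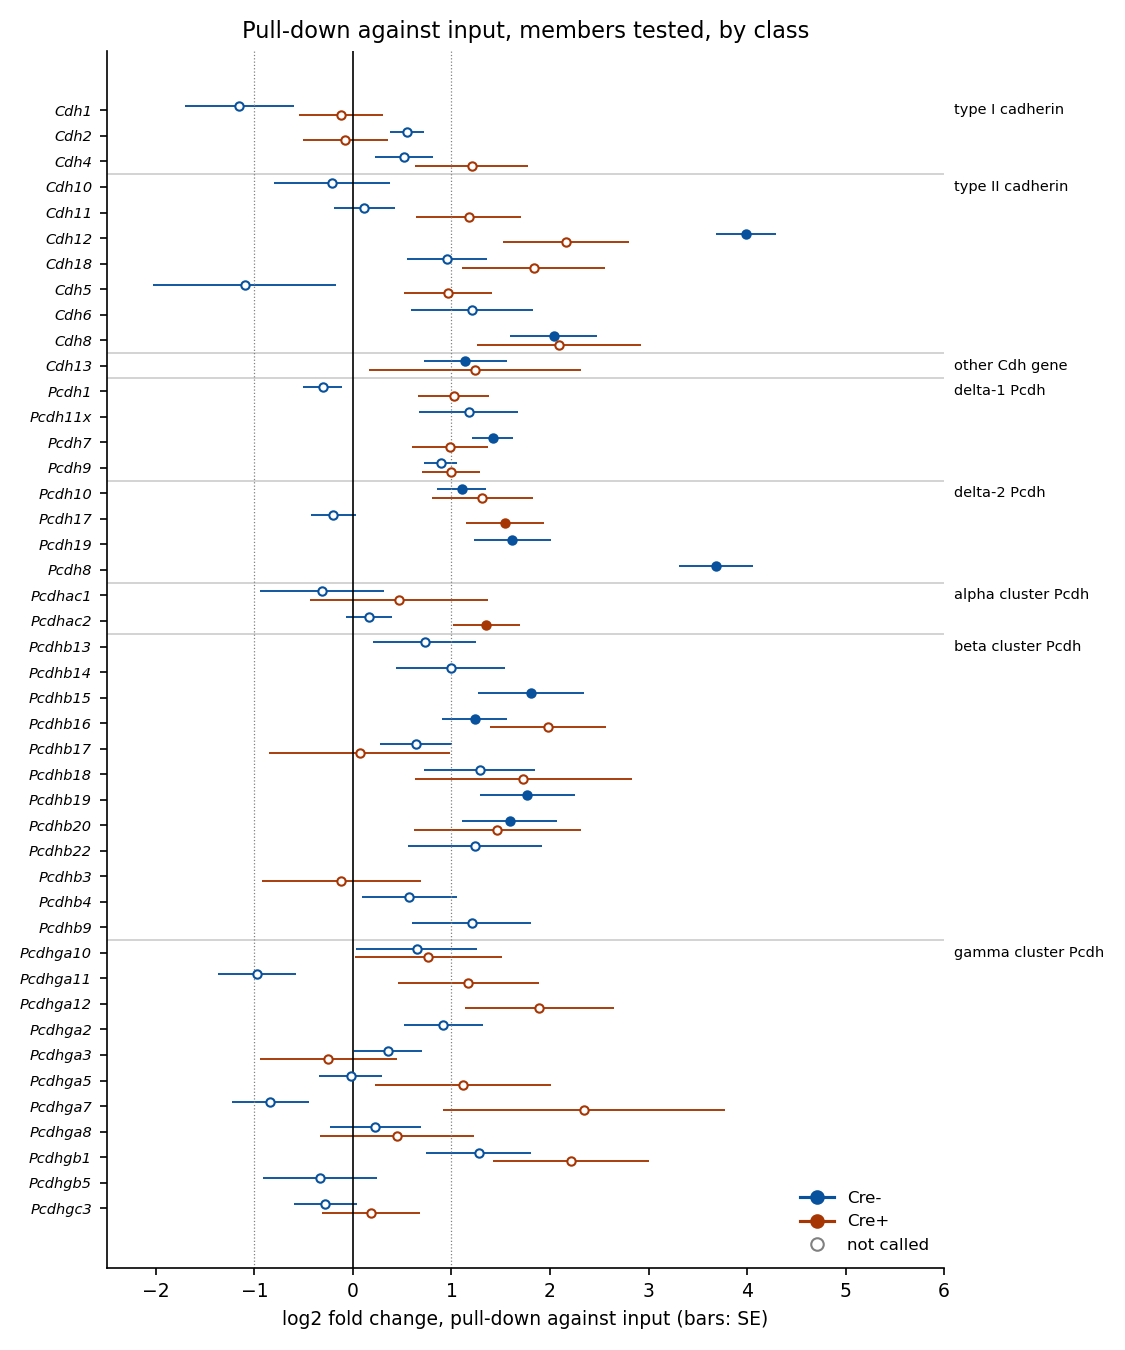
Log2 fold change of pull-down against input for every member tested, by class, with bars of 1 SE; filled points were called (FDR below 0.1 and 2-fold), dotted lines mark the 2-fold limits, and a missing point means that the gene was not tested in that table. The beta genes that passed the FPKM limit in Cre- lie to the right of 0, unlike 5 of the 10 under that limit, which are not drawn, and in Cre+ the bars are wider and only Pcdh17 and Pcdhac2 are filled.

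The remaining 40 members had a mean FPKM of 1 or less in the Cre- table and were not tested there. They were 7 Cdh genes (Cdh3, Cdh7, Cdh9, Cdh19, Cdh20, Cdh22 and Cdh24), Pcdh15, Pcdh18 and 31 clustered protocadherins. With no filter on low values none of these 40 was called, and the largest log2 fold change among their cadherins was that of Cdh7 (3.70, SE 1.42, FDR 0.112, from a mean of 0.0758 normalized counts in the inputs to 1.17 in the pull-downs). Cdh19, a marker of the Schwann cell lineage, was near the limit of detection, at a mean of 1.33 in the inputs and 0.664 in the pull-downs.

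In the Cre+ table, 2 of the 30 members tested were enriched, Pcdh17 and Pcdhac2, and 0 were depleted, where 4.72% of the 8947 genes tested were enriched and 2.19% were depleted. The members' median log2 fold change was 1.17 (26 of 30 positive), against 0.08 over all genes tested. This does not describe all members, since 35 of the 82 were listed in Cre+. The limit on mean FPKM also takes in pull-downs and inputs together. With no filter on low values, the 5 listed members under that limit had a median of 1.55. At an unadjusted p under 0.05, 12 of the 30 were higher and 0 lower, where 14% of all genes tested were higher and 9.55% lower. DESeq2 and the exact test also called 0 depleted. DESeq2 called 5 Cdh and 9 Pcdh genes enriched, so the count depended on the tool, and it also called more of all genes (12.3% higher and 6.35% lower). All pull-downs exceeded all inputs in 14 of the members tested, and in 0 they were all under them, where 15.5% of all genes had all pull-downs above and 17.9% all under.

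Pcdh17, a delta-2 protocadherin that directs axon extension through the WAVE complex (chromosome 14, 84443563 to 84537565), was at 46.7, 101 and 125 normalized counts in the Cre+ inputs and at 205, 269 and 320 in the pull-downs. All pull-downs were higher (log2 fold change 1.54, SE 0.396, FDR 0.0747, edgeR). Pcdhac2 (chromosome 18, 37143678 to 37187663) was at 45.6, 40.0 and 49.4 in the inputs and at 115, 117 and 113 in the pull-downs, which were close to each other (1.35, SE 0.341, FDR 0.072). None of the 50-base stretches of Pcdh17 occurs in another gene, against 48.2% of those of Pcdhac2. Neither gene passed an FDR of 0.05, and both calls were lost without any 1 of the 3 Cre+ inputs (FDR 0.16 to 0.246 for Pcdh17 and 0.235 to 0.267 for Pcdhac2). With the number in the column names as a block, Pcdh17 stayed enriched and Pcdhac2 did not (1.36, FDR 0.151). The call of Pcdh17 was also lost without pull-down 2 (FDR 0.104) or 3 (FDR 0.119).

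The members enriched in Cre- that could be tested in Cre+ had positive values there, without passing the test. Cdh12 was at 8.99, 7.61 and 4.81 in the Cre+ inputs and at 49.4, 21.7 and 24.7 in the pull-downs, well apart (2.16, SE 0.638, FDR 0.101). Pcdhb16 was at 6.90, 7.74 and 10.1 in the inputs and at 22.5, 30.4 and 44.7 in the pull-downs (1.98, SE 0.591, FDR 0.101). Pcdhb20 was at 7.59, 5.87 and 3.89 in the inputs and at 25.4, 2.68 and 19.9 in the pull-downs, with library 2 under the inputs (1.47, SE 0.844, FDR 0.32). Cdh8 was at 4.80, 4.26 and 6.54 in the inputs and at 10.5, 7.44 and 48.7 in the pull-downs, where library 3 carried most of the level (2.09, SE 0.834, FDR 0.172). Pcdh7 was at 55.1, 82.3 and 60.0 against 135, 172 and 84.0 (0.99, FDR 0.164), and Pcdh10 at 16.7, 21.7 and 21.9 against 73.0, 44.1 and 32.7 (1.31, FDR 0.167). Cdh13 ran from 0.693 to 24.6 across the Cre+ pull-downs (1.23, SE 1.08, FDR 0.51). Pcdh8 and Pcdh19 were not listed in the Cre+ table, and Pcdhb15 and Pcdhb19 had a mean FPKM there of 0.905 and 0.718, below the limit for testing.

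Of the other abundant members, Pcdh9 was at 72.6, 79.9 and 89.2 in the Cre+ inputs and at 155, 153 and 173 in the pull-downs (0.99, SE 0.296, FDR 0.101), close to its value in Cre-. Pcdh1 was at 265, 299 and 246 in the inputs and at 884, 362 and 400 in the pull-downs, where library 1 stood highest (1.02, SE 0.359, FDR 0.135). Cdh1 was at 103, 202 and 147 against 70.3, 199 and 146 (-0.12, FDR 0.89), and Cdh2 at 52.2, 98.1 and 105 against 81.5, 109 and 51.8 (-0.08, FDR 0.932), with overlap in both. Cdh4 was at 14.2, 20.5 and 25.4 against 65.1, 21.6 and 52.0 (1.20, FDR 0.239), and Cdh11 at 28.9, 36.3 and 27.2 against 88.4, 27.8 and 92.4 (1.17, FDR 0.216), with pull-down 2 inside the range of the inputs in both.

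Cdh5 was at 20.3, 38.3 and 39.2 in the Cre+ inputs and at 61.1, 59.9 and 69.6 in the pull-downs (0.96, SE 0.447, FDR 0.229). All pull-downs were higher, and they were close to each other, while the endothelial list summed to 1056, 104 and 201 in the same pull-downs against 70.7 to 104 in the inputs. In Cre+, where 6 of the 10 were listed, 3 of the 6 endothelial markers tested were enriched (Flt1 2.83, Tek 3.98 and Vwf 3.11, FDR 0.0951, 0.0855 and 0.072). The part of endothelial RNA in the Cdh5 values was not tested.

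Pcdh15, the tip-link protocadherin of hair cells, was below the FPKM limit in both tables. It was at 1.13, 3.03 and 3.27 in the Cre+ inputs and at 18.5, 9.88 and 12.5 in the pull-downs, with no overlap, and at 4.70, 4.38 and 4.85 against 4.91, 3.05 and 4.17 in Cre-. With no filter on low values it was enriched in Cre+ (2.44, SE 0.715, FDR 0.0999) and its difference between genotypes was called (2.67, SE 0.741, FDR 0.0842).

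The Cre+ pull-downs differed from each other in the clustered protocadherins. For the 14 clustered genes tested in both tables, the highest Cre+ pull-down was a median of 4.88 times the lowest, and 6 of the 14 (42.9%) exceeded 5-fold. Over all 8830 genes tested in both, the median was 2.94 and 29.3% exceeded 5-fold. The same 14 genes had medians of 1.73 in the Cre+ inputs, 1.71 in the Cre- inputs and 1.85 in the Cre- pull-downs, and over all genes the Cre- pull-downs had 1.46. The clustered genes also had fewer counts behind them than the genes tested (a median of 17.7 normalized counts in the Cre+ pull-downs, against 33.3), and the other 14 members had a median ratio of 2.36 at a median of 67.3. The part of the counts in the spread was not tested.

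The library with the highest value changed from gene to gene. Pcdhga7 was at 87.0, 1.59 and 0.808 normalized counts in the Cre+ pull-downs, a ratio of 108 between library 1 and library 3, with inputs at 6.81, 4.13 and 6.66. Pcdhga5 (47.0, 11.3 and 3.35) and Pcdhgb1 (53.2, 10.9 and 12.5) were also highest in library 1. Pcdhb17 (4.33, 3.66 and 37.4) and the C-type isoform Pcdhac1 (4.11, 1.59 and 20.4) were highest in library 3, and Pcdhb18 (24.1, 26.6 and 2.19) was lowest there. Pcdhac2 (115, 117 and 113) and Pcdhgc3 (25.9, 33.7 and 29.4), also C-type isoforms, were more even.

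**Figure D3:**
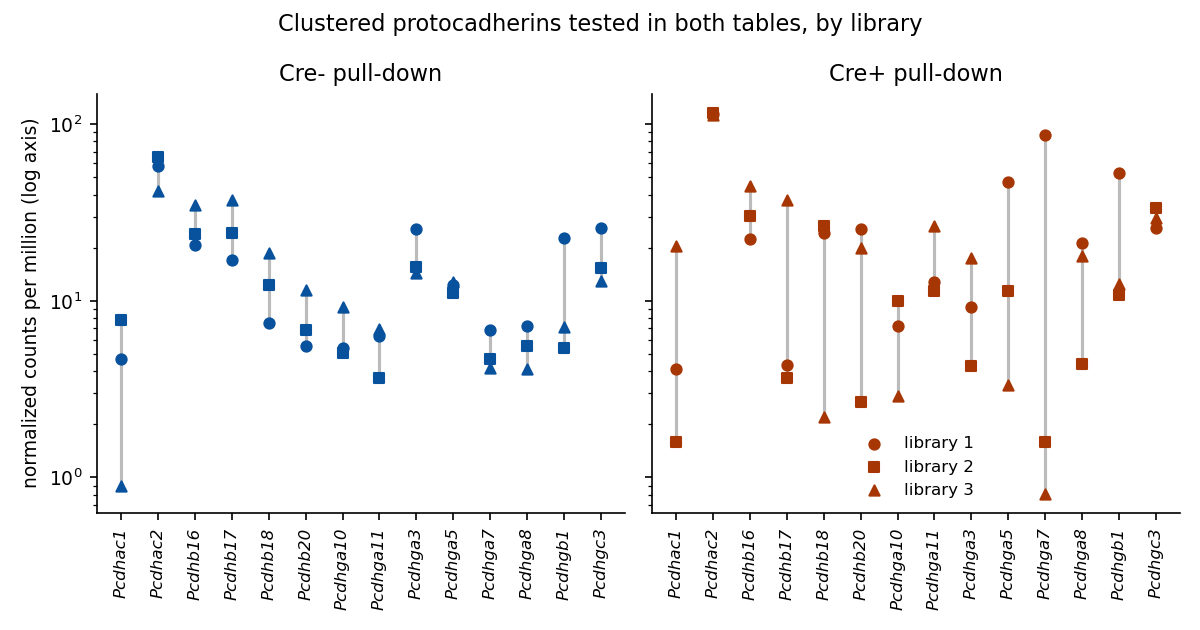
Normalized counts (per 1000000), on a log axis, for the 14 clustered protocadherins tested in both tables, in the Cre- (left) and Cre+ (right) pull-downs; symbols are the 3 libraries and grey lines join the lowest and highest. In Cre+ the lines are longer for most genes, up to the 108-fold range of Pcdhga7, and Pcdhac2 stays within 113 to 117.

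The difference of enrichment between genotypes was called for 1 of the 32 members tested, Pcdh17, which was higher in Cre+, and for 0 in the other direction. Over all 8954 genes tested, 2.33% were higher and 2.03% lower. DESeq2 called 4 members higher and 1 lower (Cdh12), and 6.83% of all genes higher and 4.78% lower. The members' median difference was 0.61 on the log2 scale (25 of 32 positive), against 0.13 over all genes, and 6 of the 32 had an unadjusted p under 0.05, 5 higher and 1 lower, where 11.1% of all genes were higher and 8.4% lower. These 32 had to be listed in Cre+ and to pass a limit on mean FPKM, so the median does not describe all members. For Pcdh17 the enrichment was larger in Cre+ by 1.78 on the log2 scale (SE 0.486, FDR 0.0809, edgeR on all 12 libraries). The pull-downs themselves differed (1.5, SE 0.348, FDR 0.0157), with the 3 Cre+ pull-downs (205, 269 and 320) above the 3 Cre- pull-downs (73.0, 120 and 109), while the inputs differed by -0.27 (SE 0.341, FDR 1).

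The call of Pcdh17 was lost without any 1 of the Cre+ inputs (FDR 0.100007 to 0.146), of the Cre- inputs (0.143 to 0.201) or of the Cre- pull-downs (0.13 to 0.191), and it held without any 1 of the Cre+ pull-downs (0.026 to 0.0832). The value stayed between 1.46 and 2.07 in all of these fits.

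The next members missed the threshold. Pcdhac2 differed by 1.23 (SE 0.389, FDR 0.118) and Pcdh1 by 1.36 (SE 0.434, FDR 0.121), both higher in Cre+, and in the direct comparison of the pull-downs both passed (1.17 with FDR 0.0167, and 1.23 with FDR 0.0217), with input differences of -0.05 and -0.13. In that comparison Pcdhga11 (1.69, FDR 0.0632) and Cdh5 (1.78, FDR 0.094) passed as well, so that with Pcdh17 5 of the 32 members were higher and 0 lower, where 10.8% of all genes tested were higher and 7.14% lower. Cdh12 differed the other way, by -1.80 (SE 0.616, FDR 0.147). Pcdhga11 (2.18, FDR 0.165) and Cdh5 (2.10, FDR 0.243) completed the members with an unadjusted p under 0.05. Without Cre- pull-down 1, the library in which Cdh5 was high, the difference of Cdh5 was 3.91 (FDR 0.0131). For Pcdh9 (0.14, SE 0.294) and Pcdh10 (0.24, SE 0.519) the estimates were small beside their errors.

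**Figure D4:**
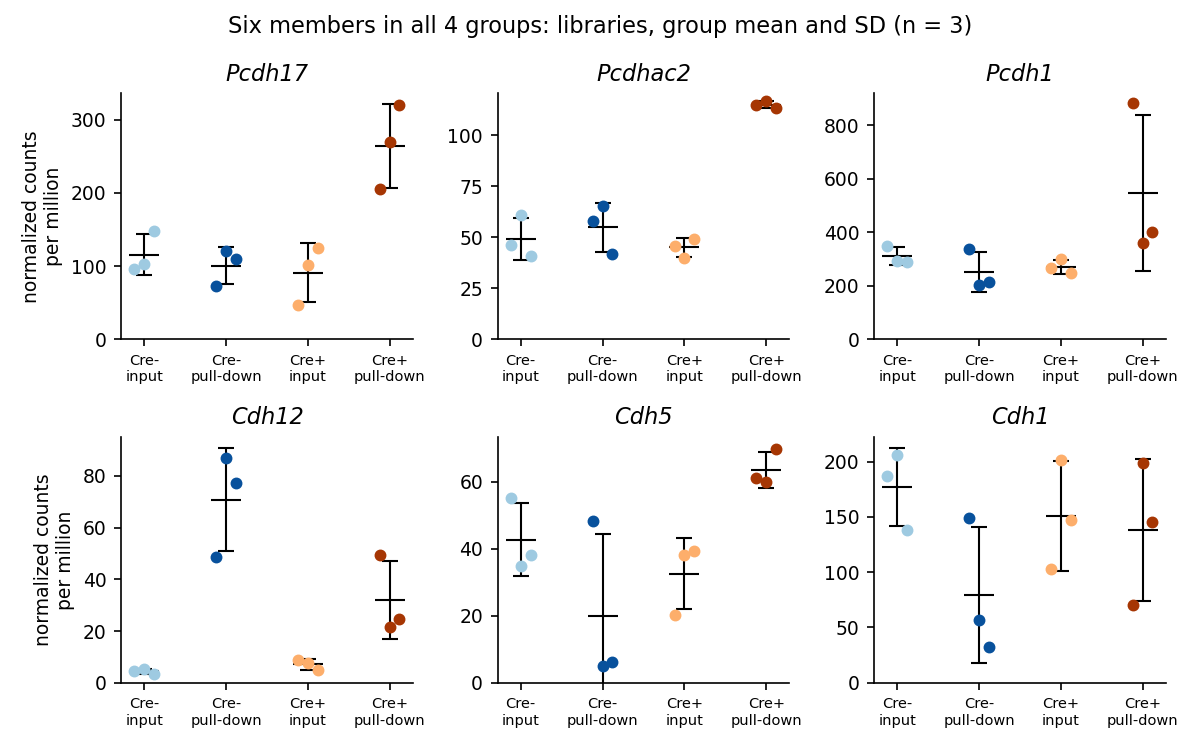
Normalized counts (per 1000000) in each library of the 4 groups for 6 members; points are libraries, and bars show the mean and SD (n = 3), cut at 0 where they would pass it. Pcdh17 and Pcdhac2 stand apart in the Cre+ pull-downs only, Cdh12 is highest in the Cre- pull-downs, and Cdh5 and Cdh1 each have Cre- pull-down 1 above the other two.

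Summed by class over the genes listed in both tables, some classes rested largely on 1 gene. The 2 delta-2 genes, Pcdh17 and Pcdh10, summed to 114 to 171 normalized counts in the Cre- inputs, 124 to 171 in the Cre- pull-downs, 63.4 to 147 in the Cre+ inputs and 278 to 352 in the Cre+ pull-downs, so that the Cre+ pull-downs alone stood clear. Pcdh17 made up 58.8% to 90.7% of this sum in the 12 libraries, while Pcdh10 was at means of 51.9 and 49.95 in the Cre- and Cre+ pull-downs (log2 difference 0.05, FDR 0.939). The 2 alpha genes summed to 118 to 134 in the Cre+ pull-downs and to 42.6 to 73.0 over the other 9 libraries, with 84.5% to 98.7% of the sum from Pcdhac2. The 6 type II cadherins were higher in the pull-downs of both genotypes (151 to 216 against 92.8 to 134 in Cre-, and 141 to 242 against 66.1 to 92.4 in Cre+), and so were the 3 delta-1 genes (627 to 721 against 444 to 537, and 657 to 1175 against 393 to 461) and the 7 beta genes (64.7 to 118 against 31.9 to 54.9, and 75.6 to 136 against 31.6 to 50.2). In Cre- the type II sum rested largely on Cdh12, which made up 47.9% and 51.2% of it in pull-downs 2 and 3. Cdh12 was at 48.5, 86.8 and 77.1 in the Cre- pull-downs and at 4.70, 5.28 and 3.41 in the inputs. Cdh8 and Cdh18 also had all Cre- pull-downs above the inputs, while Cdh5, Cdh10 and Cdh11 overlapped. The sums of the 3 type I cadherins overlapped between all groups (169 to 329 over all 12 libraries). These sums are descriptions and were not tested.

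**Figure D5:**
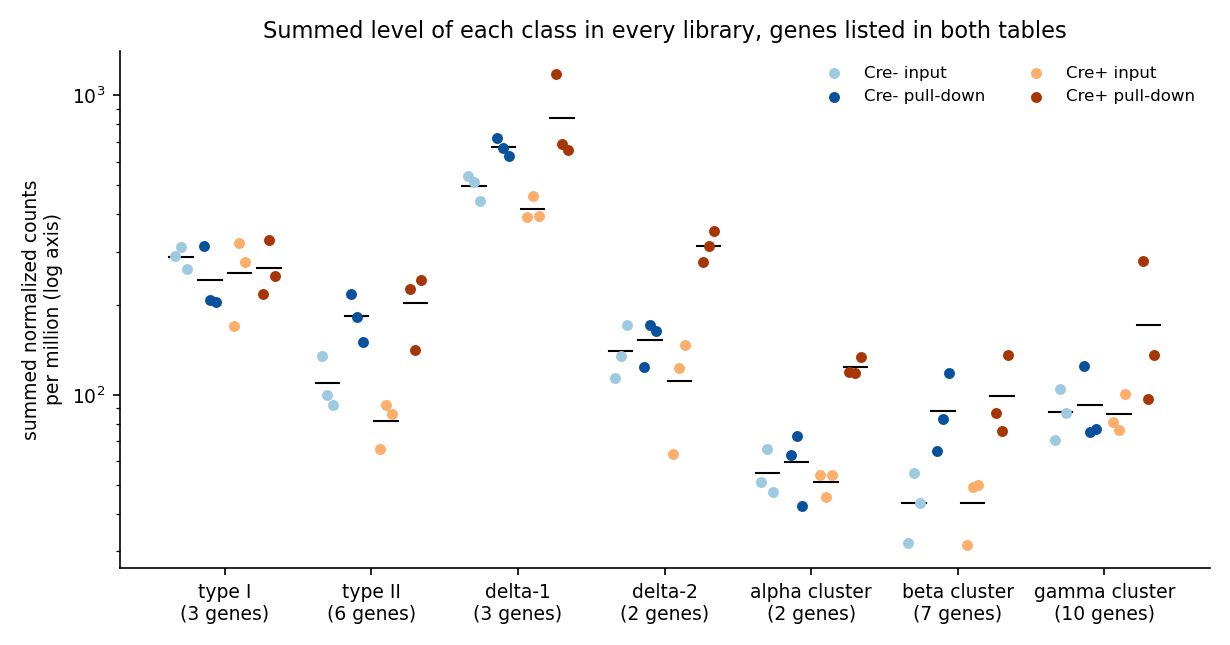
Summed normalized counts (per 1000000), on a log axis, of each class in every library, over the genes listed in both tables (number under each class); points are libraries, black lines group means. The delta-2 and alpha sums, most of which come from Pcdh17 and Pcdhac2, are highest in the Cre+ pull-downs, and the type II, delta-1 and beta sums are higher in the pull-downs of both genotypes. In Cre- pull-downs 2 and 3, Cdh12 made up 47.9% and 51.2% of the type II sum.

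By structure, the members tested in Cre- had longer transcripts than the average gene tested (median of the longest coding transcript 4731 bases against 3275, GENCODE M21, 42 and 10708 genes matched) and fewer exons (median 4 against 9). The 11 enriched members had a median of 5225 bases and a GC content of 44.7%, against 4730 bases and 49.5% for the 31 that were not called. In Cre- the enriched set held no gamma or alpha gene, the classes with medians of 54.1% and 50.3% of stretches shared.

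The molecules that act with cadherins and protocadherins were taken from lists. Of the catenins and adherens junction proteins, 0 of 11 tested were called in Cre- (the smallest FDR were those of Vcl, the actin linker vinculin, at 0.90 with FDR 0.00659, and of Ctnnb1, beta-catenin, at 0.40 with FDR 0.128), and 1 of 10 was enriched in Cre+ (Mllt4, afadin, 1.82, FDR 0.092). At an unadjusted p under 0.05, 3 of the 11 were higher in Cre- and 2 of the 10 in Cre+. Of the WAVE complex, which several delta protocadherins bind, 0 of 9 were called in Cre- (Nckap1 0.59, FDR 0.0265; Wasf2 -0.78, FDR 0.0312) and 1 of 9 was enriched in Cre+ (Abi2, 1.30, FDR 0.0626), which also differed between genotypes (1.21, FDR 0.0968). At an unadjusted p under 0.05, 1 was higher and 2 lower in Cre-, and 2 and 0 in Cre+. Of the other cytoplasmic partners, 0 of 7 in Cre- and 0 of 6 in Cre+ were called (Ppp1ca, a phosphatase subunit, had -0.90 and -1.18, with FDR 0.0253 and 0.159). Ptk2b, a kinase that protocadherins inhibit, had -0.94 in Cre- (FDR 0.0396), and Pdcd10 had -1.80 in Cre+ (FDR 0.173). At an unadjusted p under 0.05, 1 was higher and 4 lower in Cre-, and 0 and 2 in Cre+.

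The list of regulators of clustered protocadherin promoters holds CTCF, cohesin and its cofactors, and also other genes such as Setdb1, Smchd1 and Rest. It gave 0 of 12 calls in Cre- (Smc3 had 0.97 with FDR 0.00369 and Nipbl 0.63 with FDR 0.0189, both under 2-fold). In Cre-, 6 had a higher value at an unadjusted p under 0.05 (Nipbl, Setdb1, Smc1a, Smc3, Smchd1 and Wapal) and 0 a lower one. In Cre+, 4 of 12 were enriched, the cohesin subunits Smc1a (3.16, FDR 0.0406) and Smc3 (2.10, FDR 0.0401), the cohesin loader Nipbl (2.24, FDR 0.0381) and the release factor Wapal (1.26, FDR 0.0634). With Rest, 5 were higher and 0 lower in Cre+ at an unadjusted p under 0.05. The difference between genotypes was called for Nipbl (1.64, FDR 0.083).

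Of the other branches of the cadherin superfamily, 6 of 11 tested were enriched in Cre- and 1 was depleted. The calsyntenins Clstn3 (2.33, FDR 0.00016), Clstn2 (1.93, FDR 4.65e-05) and Clstn1 (1.10, FDR 0.00122), the seven-pass cadherin Celsr2 (1.57, FDR 0.00028) and the giant cadherins Fat3 (1.40, FDR 0.000284) and Fat4 (1.02, FDR 0.0113) were higher in the pull-down, and the desmosomal Dsg2 was lower (-1.50, FDR 0.0192). In Cre+, 3 of 9 were enriched, Celsr2 (2.18, FDR 0.0402), Fat4 (3.31, FDR 0.0413) and Fat3 (1.28, FDR 0.0609). The difference between genotypes was called for Clstn1 (-1.22, FDR 0.0689) and Clstn2 (-1.28, FDR 0.0896), both larger in Cre-, and for Fat4 (2.31, FDR 0.0989), larger in Cre+.

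All 14 pan-neuronal markers were listed in both tables. In Cre-, 4 were enriched (Map2 1.57, Nefh 1.35, Nefm 1.29 and Snap25 1.17) and Gap43 was depleted (-1.75), with summed levels of 50945 to 58536 normalized counts in the pull-downs against 26689 to 31382 in the inputs. In Cre+, 0 were enriched (2 had a positive change with an unadjusted p under 0.05) and 3 depleted, Uchl1 (-1.85), Stmn2 (-1.21) and Tubb3 (-1.19), with sums of 23419 to 25910 against 23319 to 30366. Proprioceptor markers were enriched for 6 of 8 in Cre- (Runx3, Whrn 3.35, Pvalb 2.98, Etv1 2.69, Spp1 2.68 and Ntrk3 2.05), with sums of 1454 to 1782 against 394 to 425, and for 1 of 6 in Cre+ (Ntrk3 2.19), with sums of 683 to 882 against 305 to 418. Markers of other sensory neurons were depleted in Cre-, among them Sst (-2.73), Calca (-2.5), P2rx3 (-1.39), Prdm12 (-1.25) and Tac1 (-1.23), and for 1 of 12 in Cre+ (Calca -1.84). Schwann and satellite glia markers were depleted for 3 of 11 in Cre- (Fabp7 -3.09, Pmp22 -1.71 and Apoe -1.58), with inputs at 3328 to 4697, and for 0 of 9 in Cre+ (1963 to 2733 against 2940 to 4042, 2 lower at an unadjusted p under 0.05). Macrophage markers were called for 0 of 3 and 0 of 2, and in Cre+ fibroblast markers (0 of 4) and pericyte markers (0 of 2) gave no call, with 0 at an unadjusted p under 0.05 in each. The part of cell composition in the members' values was not tested.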

How the data were processed

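Per the labels and the study's methods, the authors aligned reads to mm10 with STAR, counted uniquely mapped reads per RefSeq gene with HTSeq and deposited, for each genotype, raw counts and a mean FPKM per gene. The counting mode and strand setting are not given in the sources used here. The submitters' processing notes also name CASAVA 1.8.2 and edgeR. The deposited fold changes, p-values and FDR were not used, nor were 18 columns of normalized counts and ratios per sample. Cre+ columns were assigned to groups and Cre- columns to samples.

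Counts were scaled by TMM and tested with edgeR 4.0.16 in R 4.3.3 (quasi-likelihood, robust estimation, 3 libraries per group, no covariate) over all genes whose mean FPKM exceeded 1. Each sample pooled 5 mice, and whether pools were separate cultures is not stated, so p-values cover the spread between these samples. The test was also run on simulated counts, and the outcome of that run is not reported here. DESeq2 1.42.0, other filters, scalings, thresholds and the exact test were alternatives. Members called, and the 5 of each family with the highest mean FPKM in each table, are given in full; of each list, those called (at most 6), and in lists other than the cell type markers otherwise 1 or 2 with the smallest FDR. The members and lists (catenins, WAVE complex, cytoplasmic partners, promoter regulators, cadherin superfamily, and cell type markers) were chosen with earlier results of these data known. The results of 1 further list and of some genes of the other lists are not reported here. No 2 libraries of a group agreed within sampling noise (chi-square per degree of freedom 14.3 or more). Positions and sequences come from RefSeq (GRCm38.p6) and GENCODE M21.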

Additional observations from a re-analysis of the deposited data

Results flagged for a closer look

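With edgeR and a mean FPKM above 1, Pcdh17 was the 1 member called for a difference of enrichment between the genotypes by a test of the difference itself. Its log2 fold change of pull-down against input was 1.54 in Cre+ and -0.20 in Cre-, a difference of 1.78 (SE 0.486, FDR 0.0809, interaction term over all 12 libraries). The call was lost without any 1 of the Cre+ inputs, the Cre- inputs or the Cre- pull-downs (FDR 0.100007 to 0.201). With no filter on low values Pcdh15 was called too (2.67, FDR 0.0842), and DESeq2 called 4 of the 32 members tested higher and 1 lower. Over all 8954 genes tested, edgeR called 2.33% higher and 2.03% lower, and DESeq2 called 6.83% higher and 4.78% lower. The share called with no filter is not given here.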

How the results depend on the processing

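Of 966 values of named genes under alternatives, 867 stayed on their side of the threshold, 49 lost the call and 50 gained it. No call turned its direction, while 32 of the 867, none of them called, had the other sign. Cdh12, Pcdh8, Pcdh7 and Pcdh19 stayed enriched in Cre- in every alternative in which they were tested. Of all genes tested, the main fit called 6.01% enriched and 5.83% depleted in Cre-, and 4.72% and 2.19% in Cre+. DESeq2 called 6.62% and 6.23% in Cre-, and 12.3% and 6.35% in Cre+. For the difference, 2.33% were higher and 2.03% lower, and 6.83% and 4.78% with DESeq2. Shares under the other alternatives are not given here, so their counts below cannot be set against all genes. In Cre-, 3 Cdh genes and 8 Pcdh genes were enriched and 0 depleted. Fitting all 12 libraries together left 1 Cdh (Cdh12) and 1 Pcdh (Pcdh7) enriched. That fit held fewer members, and Pcdh8, Pcdh19 and Pcdhb19 were not among them. Depleted Cdh genes numbered 1 with the exact test (Cdh1), 1 without robust estimation, an alternative chosen after seeing the data (Cdh1), and 0 to 2 when libraries were left out, 2 (Cdh1 and Cdh5) without pull-down 1. Depleted Pcdh genes numbered 2 with library size alone (Pcdhga7 and Pcdhga11), and 0 to 1 when libraries were left out. In Cre+, 0 Cdh genes were enriched, but 5 with DESeq2, 1 with the exact test, 5 in the fit of all 12 libraries, 1 without robust estimation and 0 to 2 with libraries left out. The 2 enriched Pcdh genes became 9 with DESeq2, 4 with the exact test and 8 in the fit of all 12 libraries, 0 with upper-quartile scaling, 0 with library size alone, 0 at FDR 0.05, and 0 to 4 with libraries left out; 0 to 1 Pcdh genes were then depleted. For the difference, the 1 gene higher in Cre+ became 4 with DESeq2, 2 with at least 10 counts in 3 libraries, 2 with no filter, 0 with upper-quartile scaling, 0 with library size alone, 0 at FDR 0.05, and 0 to 5 with libraries left out; the count lower in Cre+ was 1 with DESeq2 (Cdh12) and 0 to 1 with libraries left out. The causes were not tested. Inputs came from lysates that were also pulled down, but no source used here ties equal numbers to 1 lysate. Same-number correlations of the deviations in Cre- were 0.0716, 0.0308 and 0.133, under 0.1 in 2 of 3, though each sample correlated best with its own number. With the replicate block in Cre-, 3 Cdh genes (Cdh12, Cdh18 and Cdh8) and 10 Pcdh genes were enriched and 2 Cdh genes depleted (Cdh1 and Cdh5). In Cre+ the names of the columns do not tie their numbers to a sample (same-number correlations -0.01, -0.003 and 0.0105). A replicate block by these numbers, added after seeing the data, left 1 Pcdh gene enriched (Pcdh17) and kept 1 difference (Pcdh17). Members with a mean FPKM of 1 or less had few counts, and their values carry large errors (SE 1.42 for Cdh7 in Cre-).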
